A study of Mus musculus with 24 samples.

Results

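TET iTKO bone marrow-derived macrophages (BMDMs) were compared with WT BMDMs at 6 h of stimulation with KLA, and the gene groups that were higher or lower after stimulation are described here. The members were the 4 libraries, of 24 in the series, whose titles name stimulated BMDMs of the Tet cohort, 2 of each genotype. Polyadenylated RNA was sequenced in all of them. Of the other libraries, 4 unstimulated BMDM libraries of the same cohort (0 h) and 8 BMDM libraries of a second cohort, TDG iKO and its own WT at 0 h and 6 h, were used for comparison, and 8 libraries of Th2 cells were not used. All mice were C57BL/6 and 8 to 16 weeks old. The TET iTKO mice carried floxed Tet1, Tet2 and Tet3 (fl/fl for each), the Cre-dependent reporter Rosa26-YFP LSL and a transgene for CreERT2, a Cre recombinase that acts after tamoxifen, which lies at the Ndor1 locus. Tamoxifen was given to mice with Cre and to control mice alike. The labels call the controls wild type and do not say whether they carried floxed alleles or the reporter. The promoter of the transgene is active in many cell types, and tamoxifen was injected into the mice, so the knockout was not limited to macrophages. The study measured loss of the floxed exons in Th2 cells and Tet transcripts in BMDMs by PCR, and those values were not used here. The macrophages were the adherent cells of marrow grown in L929-conditioned medium and M-CSF, with no sort, and they received 10 ng/ml KLA.

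KLA (Kdo2-lipid A) is the active core of bacterial lipopolysaccharide. It binds Toll-like receptor 4, which signals through MyD88 and TRIF to NF-kB, AP-1 and interferon regulatory factors, and macrophages answer with inflammatory cytokines, chemokines and antiviral genes while other genes of the resting cell go down. TET enzymes oxidise 5-methylcytosine in DNA, a first step of demethylation at enhancers, and loss of TET function in the marrow is known for expansion of stem cells and myeloid precursors.

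Read counts assigned to genes were 15134181 and 19549783 in TET iTKO replicates 1 and 2 and 16824308 and 16492352 in WT replicates 1 and 2, so that 3 counts in a library equalled 1.53e-05% to 1.98e-05% of it. The share of reads not aligned was 8.81% and 13.4% in TET iTKO and 5.08% and 7.53% in WT. Replicates of a group differed by more than counting noise, with a mean chi-square per gene of 14.8 in TET iTKO and 25.2 in WT. Principal component 1 of the Tet cohort (51.2% of the variance) separated the libraries by time and component 2 (23.6%) by genotype. Xist, the RNA of the inactive X chromosome, had 0 counts in both libraries of WT replicate 1 and 17492 in WT replicate 2 at 6 h, against 19558 and 20559 in TET iTKO. The Y-linked genes Ddx3y, Eif2s3y, Kdm5d and Uty had 0 counts in all 16 BMDM libraries, WT replicate 1 included, so these genes do not resolve the sex of that replicate. Tet2 had normalised counts of 1760.1 and 1887 in TET iTKO and 1458 and 1672 in WT and Tet3 of 1471 and 1451 in TET iTKO and 1300.3 and 1341 in WT, and neither was lower where the label says deleted. Tet1 was near the floor, at 15.6 and 14.8 in TET iTKO and 7.22 and 12.1 in WT. Counts per gene do not resolve the floxed exons, so they could not check the label. Ndor1, at the Cre insertion, had 282 and 216 in TET iTKO and 425 and 387 in WT (log2 fold change -0.71, SE 0.20, DESeq2 adjusted p 0.01). Of 12 macrophage markers all were detected, with the F4/80 gene Emr1 at 71173 and 68698 in TET iTKO and 65165 and 66001 in WT and the M-CSF receptor gene Csf1r at 32752 and 34515 in TET iTKO and 30794 and 30905 in WT. These 2 genes did not differ by the test used below, but 7 of the 12 markers were lower in TET iTKO by it. None passed as higher, and the median log2 fold change of the markers was -0.44.

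Many genes differed between TET iTKO and WT macrophages after stimulation, and the genes called higher had larger changes than those called lower. Normalised counts, which are counts divided by the library's size factor, were tested with DESeq2, and a gene was called where its adjusted p-value was under 0.05. Of 11823 genes tested, 762 (6.45%) were called, 374 higher (3.16%) and 388 lower (3.28%) in TET iTKO. The median log2 fold change was 1.13 over the genes called higher and -0.62 over those called lower, and 0.00 over all genes tested. At least 2-fold changes were called for 201 genes higher (1.7% of those tested) and 70 lower (0.592%). DESeq2 gave an unadjusted p under 0.05 for 1875 of the 11823 genes. Counts of list members at that threshold below are to be set beside this. None of the 762 called genes had overlapping groups, but with 2 libraries a side the groups also failed to overlap for 24.2% (higher) and 23.1% (lower) of all genes tested. edgeR called 532 genes, 508 of them in common with DESeq2 and in the same direction. Without TET iTKO replicate 2, the deepest library, 262 genes were called, and without WT replicate 1, which had no Xist counts, 416. The labels do not say whether the replicates came from separate mice, so p-values measure the spread between these libraries.

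**Figure D1:**
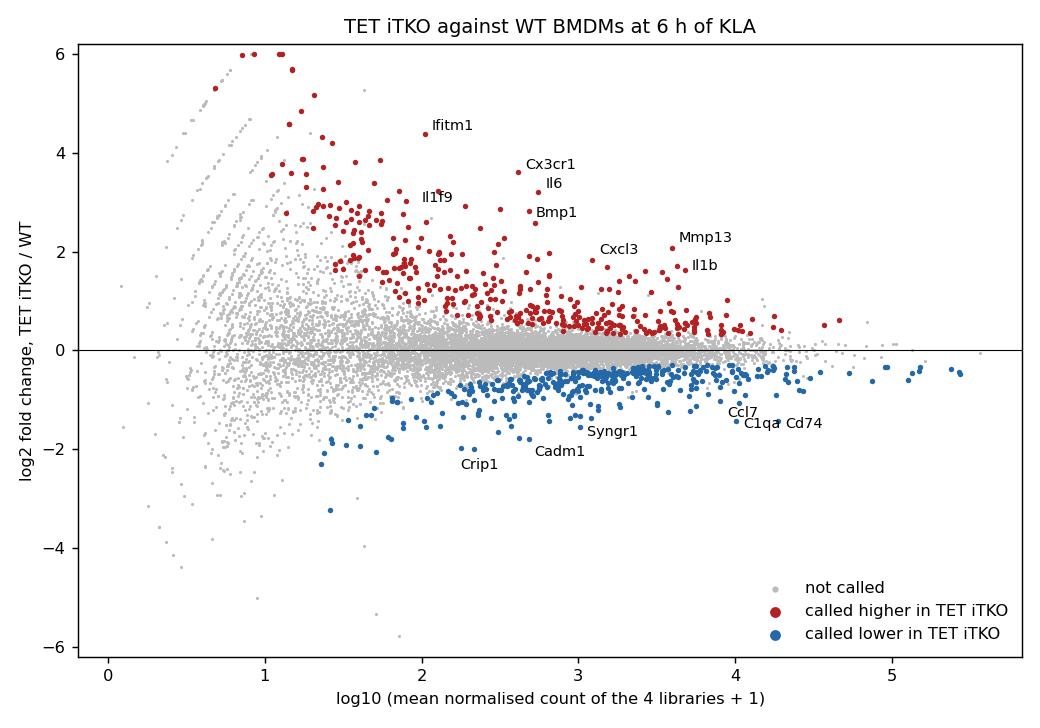
Log2 fold change (TET iTKO against WT at 6 h of KLA, y axis) of each gene tested, against the log10 of its mean normalised count plus 1 over the 4 libraries (x axis). Red points are the 374 genes called higher and blue points the 388 called lower, grey points were not called, and values beyond 6 in either direction are drawn at 6. The red points reach farther from 0 than the blue ones.

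The genes with the largest increases among those with a mean of at least 50 normalised counts included a membrane receptor of monocytes, an inflammatory cytokine, a matrix protease and several genes of immature cells. Cx3cr1, the fractalkine receptor of monocytes (chromosome 9, 119957811 to 119977400, build mm9), had 528 and 979.8 in TET iTKO and 70.1 and 54.1 in WT (log2 fold change 3.60, SE 0.54, DESeq2 adjusted p 5.57e-09). Bmp1, a protease that trims procollagen, had 684 and 999.9 in TET iTKO and 111 and 128 in WT (log2 fold change 2.82, SE 0.28, DESeq2 adjusted p 1.07e-20). Both TET iTKO libraries lay several-fold above both WT libraries for these genes, and replicate 2 was the higher of the knockout pair in each. Ifitm1, an interferon-induced transmembrane gene, had 99.2 and 298 in TET iTKO and 13.4 and 5.52 in WT. Cd34, a surface antigen of progenitors, had 35.7 and 164 in TET iTKO and 5.16 and 8.83 in WT. Ccnd2, cyclin D2, had 356 and 756 in TET iTKO and 45.4 and 108 in WT. Lad1 (ladinin, an anchoring filament protein) at 3.22, Runx3 (a runt-domain transcription factor) at 3.22, Rasgrf1 (a Ras exchange factor) at 3.03, Nup210 (a nuclear pore protein) at 3.03 and Phgdh (the first enzyme of serine synthesis) at 2.78 on the log2 scale completed the 12 largest increases together with Il6 and Il1f9, described below. Of these 12, Cd34, Nup210 and Phgdh were not called in edgeR, and the others were. The smallest adjusted p-values among the genes called higher belonged to Serpinb2, Bmp1, Lcn2, Cd5l and Parvg. Serpinb2, the plasminogen activator inhibitor PAI-2, had 2157 and 2474 in TET iTKO and 794 and 649 in WT (log2 fold change 1.68, SE 0.16, DESeq2 adjusted p 2.01e-23). Parvg, gamma-parvin, an actin-linked adaptor of integrins, had 688 and 707 in TET iTKO and 249.5 and 212 in WT.

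Genes with the largest decreases were spread over lipid binding, adhesion, intracellular transport and proteolysis. Crip1, a small LIM-domain protein, had 81.4 and 90.5 in TET iTKO and 392 and 299 in WT (log2 fold change -2.00, SE 0.23, DESeq2 adjusted p 7.5e-16). Fabp7, a fatty acid binding protein, had 72.5 and 72.2 in TET iTKO and 285 and 284 in WT. Kif5c, a kinesin, had 25.6 and 13.9 in TET iTKO and 45.4 and 117 in WT. Cadm1, a cell adhesion molecule, had 259.7 and 172 in TET iTKO and 858 and 643 in WT. All TET iTKO values lay below all WT values for these genes, which was a condition for naming them. For Kif5c the WT pair itself differed by more than 2-fold. Qpct (glutaminyl cyclase, -1.76), Prune2 (-1.75), Sass6 (a centriole assembly protein, -1.66), Rilpl1 (a Rab-binding protein, -1.58), Syngr1 (a synaptic vesicle protein, -1.55), Neo1 (neogenin, -1.54) and Ctsk (cathepsin K, -1.53) fell by more than 2-fold, as did the uncharacterised AI427809 (-1.80). Among the genes named so far in this paragraph, Neo1 was not called in edgeR, and the others were. The smallest adjusted p-values among the genes called lower belonged to C1qa, Rin2, Cd74, Syngr1 and Gas6. C1qa, a chain of the complement initiator C1q, had 5213 and 5814 in TET iTKO and 13923 and 15675 in WT (log2 fold change -1.42, SE 0.12, DESeq2 adjusted p 6.81e-28, a 2.68-fold lower level). Rin2, an exchange factor for Rab5 in endocytosis, had 2059 and 1981 in TET iTKO and 4103 and 4576 in WT.

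The 150 bases before the annotated start are shown for 5 called genes. They put side by side the promoters of 4 genes with an inflammatory motif that moved in opposite directions (Il6, Cxcl3 and Serpinb2 higher, Ccl7 lower). The other is that of C1qa, the decrease with the smallest adjusted p-value, which has no such motif. The genes were chosen after their values were seen, sequences are from the mm9 genome, and capitals mark a match to the NF-kB motif or to the AP-1 motif TGANTCA, searched on both strands. Il6 lies at chr5:30339551-30339700, plus strand, Cxcl3 at chr5:91214979-91215128, plus strand, Serpinb2 at chr1:109407850-109407999, plus strand, Ccl7 at chr11:81859064-81859213, plus strand and C1qa at chr4:136454719-136454868, minus strand.
Il6: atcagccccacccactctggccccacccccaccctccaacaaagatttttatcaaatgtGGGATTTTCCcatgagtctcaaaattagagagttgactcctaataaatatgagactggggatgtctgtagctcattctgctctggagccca
Cxcl3: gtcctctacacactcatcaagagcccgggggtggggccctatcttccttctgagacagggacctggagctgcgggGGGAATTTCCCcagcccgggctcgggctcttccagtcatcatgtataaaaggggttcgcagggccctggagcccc
Serpinb2: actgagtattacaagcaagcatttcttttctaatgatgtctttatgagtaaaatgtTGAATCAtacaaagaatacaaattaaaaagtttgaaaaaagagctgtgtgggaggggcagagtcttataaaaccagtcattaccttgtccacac
Ccl7: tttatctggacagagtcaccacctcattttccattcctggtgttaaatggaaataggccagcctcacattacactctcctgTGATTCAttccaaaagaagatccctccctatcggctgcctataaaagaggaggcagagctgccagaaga
C1qa: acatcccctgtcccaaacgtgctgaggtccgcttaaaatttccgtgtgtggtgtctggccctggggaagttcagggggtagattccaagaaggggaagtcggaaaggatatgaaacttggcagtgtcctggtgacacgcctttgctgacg
The NF-kB match lay 91 to 82 bases before the start in Il6. In Cxcl3 overlapping matches lay 75 to 66 bases before it on the plus strand and 74 to 65 on the minus strand, and the AP-1 match 94 to 88 before it in Serpinb2 and 69 to 63 in Ccl7. The stretches of C1qa, Cxcl3 and Ccl7 held 6, 5 and 1 CpG dinucleotides, and those of Il6 and Serpinb2 held 0. The same stretches of Il1b, Ptgs2, Il1f9 and Lcn2, which were also called higher, held no match to either motif and are not printed. Farther out, Lcn2 held an NF-kB match 202 to 193 bases before the start, on the minus strand. A match says only that the letters are there.

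Over windows from 250 bases before to 50 after the start, found for 97.3% of the genes called higher, 94.8% of those called lower and 93.7% of all genes tested, 9.07% of the genes called higher held the NF-kB motif, 4.89% of those called lower and 5.18% of all. The AP-1 motif was in 6.87% of the genes called higher, 9.51% of those called lower and 4.91% of all, and the cyclic AMP response element TGACGTCA in 0.824%, 1.63% and 3.33%. The core of the interferon-stimulated response element, GAAANNGAA, was in 8.52%, 7.88% and 7.85%, and the TATA motif TATAAA in 9.62%, 8.15% and 7.24%. Promoters of both called groups were poorer in CpG than those of all genes tested, as were those of the KLA-induced and KLA-repressed lists described below. The median ratio of observed to expected CpG was 0.634 for genes called higher, 0.64 for those called lower and 0.763 for all, and the ratio was under 0.4 for 36.8%, 29.9% and 16.8%. In the KLA-induced and KLA-repressed lists it was under 0.4 for 38.7% and 27.3%, and 13.4% and 3.74% held the NF-kB motif. Whether these traits go with the TET effect apart from the response to KLA was not tested. DNA methylation was not measured in these libraries.

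Several cytokines of the IL-1 family, and Il6, were higher in stimulated TET iTKO macrophages. Il1b, the pyrogenic cytokine IL-1 beta (chromosome 2, 129190306 to 129196875), had 5207 and 9179.7 in TET iTKO and 2220.2 and 2446 in WT (log2 fold change 1.62, SE 0.50, DESeq2 adjusted p 0.0215). Il6, a cytokine of the acute phase response (chromosome 5, 30339701 to 30346508), had 621 and 1377 in TET iTKO and 51.6 and 164 in WT (log2 fold change 3.21, SE 0.99, DESeq2 adjusted p 0.0241). The knockout values lay above both WT values for each gene, as for every gene called higher. The WT libraries differed by more than 3-fold for Il6, and the errors are wide. Il1a, IL-1 alpha, named here after its values were seen, was tighter, at 3699.7 and 4290.1 in TET iTKO and 1618 and 1916 in WT (log2 fold change 1.18, SE 0.16, DESeq2 adjusted p 3.95e-11). Il1f9, IL-36 gamma, had 253 and 408 in TET iTKO and 44.3 and 43.04 in WT (log2 fold change 2.92, SE 0.35, DESeq2 adjusted p 4.05e-14). Of 13 IL-1 family genes tested, 6 rose (46.2%, against 3.16% of all genes) and 7 did not pass, with a median log2 fold change of 1.18. This list and those of the gene groups below were written with earlier results of these data known. Their shares are descriptions and not tests, to be set beside 3.16% higher and 3.28% lower over all genes tested. By role, 4 of 5 ligands rose, the fourth being Il1f6 (IL-36 alpha) from 3.09 and 3.31 in WT to 24.5 and 59.2. Il1r1, the signalling receptor for IL-1, had 41.2 and 51.3 in TET iTKO and 8.25 and 7.73 in WT, and Il18rap, a chain of the IL-18 receptor, had 13.4 and 11.3 in TET iTKO and 0 in both WT libraries. The antagonist Il1rn, also named after its values were seen, did not pass (14024 and 13731 in TET iTKO and 9739.6 and 14812 in WT). The IL-1 family count was 3 without TET iTKO replicate 2 and 3 without WT replicate 1. Il6 was not called when either TET iTKO library was left out, and Il1b not without TET iTKO replicate 2 or without either WT library.

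Il12b, the p40 chain shared by IL-12 and IL-23, was the other called member of the IL-6 and IL-12 families, with 99.2 and 329 in TET iTKO and 42.3 and 78.4 in WT (log2 fold change 1.83, SE 0.53, DESeq2 adjusted p 0.0126). Of 11 genes of these families tested, 2 rose (18.2%), with a median of 0.21 and 5 receptors that did not pass. Nlrp3, the sensor of the inflammasome that matures IL-1 beta, had 5687 and 7820.4 in TET iTKO and 3928 and 4763 in WT (log2 fold change 0.64, SE 0.16, DESeq2 adjusted p 0.00174). It was the single called gene of 13 for inflammasome and pyroptosis. Other well known products of the response to KLA did not pass and were looked up after the results were known. Tnf, tumour necrosis factor, had 7980.0 and 9816 in TET iTKO and 7233 and 9244 in WT (log2 fold change 0.11). Il10, an anti-inflammatory cytokine, had 176 and 246 in TET iTKO and 188 and 345 in WT. Nos2, the inducible nitric oxide synthase, had 2325 and 2305 in TET iTKO and 1341 and 3598 in WT. Values of the 2 genotypes overlapped for all 3 genes, and WT replicates 1 and 2 differed more than 2-fold for Nos2. Il12b and Nlrp3 lost their call without TET iTKO replicate 2, without WT replicate 1 and in edgeR.

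In the TNF family the called members were all lower, and they were 3 ligands and the main TNF receptor. Tnfsf13b, the B cell survival factor BAFF, had 18.9 and 13.9 in TET iTKO and 58.8 and 66.2 in WT (log2 fold change -1.94, SE 0.51, DESeq2 adjusted p 0.00482). Tnfsf13, the related APRIL, had 13.4 and 9.57 in TET iTKO and 25.8 and 52.97 in WT. Tnfsf12, the cytokine TWEAK, had 150.5 and 134 in TET iTKO and 285 and 288 in WT (log2 fold change -1.01, SE 0.20, DESeq2 adjusted p 4.83e-05). Tnfrsf1a, the main receptor for TNF, fell by 0.33 on the log2 scale, from 3197 and 3085 to 2512 and 2499. Of 25 family members tested, 4 fell (16%, against 3.28% of all genes) and the other 21 did not pass, with a median of 0.10. Among colony-stimulating factors and other cytokines and their receptors, 2 of 20 fell, both receptors. Il13ra1, a chain of the IL-13 receptor, had 174 and 133 in TET iTKO and 376 and 416 in WT (log2 fold change -1.37). Csf2ra, the GM-CSF receptor alpha chain, had 1953 and 1778 in TET iTKO and 3106 and 2781 in WT (log2 fold change -0.66). Tnfsf12, Il13ra1 and Csf2ra were called in every alternative setting tried, and the count of TNF family members called lower was 2 without TET iTKO replicate 1, 1 without TET iTKO replicate 2 and 1 without WT replicate 2. Without WT replicate 2, 2 members were called higher. Tnfrsf1a was not called in edgeR, in the fit of the 4 stimulated libraries alone or when any single library was left out, and Tnfsf13 and Tnfsf13b lost their call in 5 and 3 of 9 alternatives.

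Called chemokines went in both directions. The neutrophil attractants Cxcl2 and Cxcl3 were higher and the monocyte attractants Ccl2, Ccl7 and Ccl6 lower, and most chemokines of either class did not pass. Cxcl3 had 1589.5 and 2239 in TET iTKO and 434 and 638 in WT (log2 fold change 1.84, SE 0.21, DESeq2 adjusted p 2.08e-15). Cxcl2 had 4238 and 5561 in TET iTKO and 2772 and 2880.4 in WT (log2 fold change 0.79, SE 0.17, DESeq2 adjusted p 0.000212). Ccl7 (chromosome 11, 81859214 to 81861027) had 5805 and 4749 in TET iTKO and 10385 and 11133 in WT (log2 fold change -1.03, SE 0.12, DESeq2 adjusted p 1.04e-15). Ccl2 had 7786 and 5145 in TET iTKO and 9593 and 10544 in WT (log2 fold change -0.64, SE 0.15, DESeq2 adjusted p 0.000857). Ccl6 had 4725 and 3825 in TET iTKO and 7275 and 5866 in WT (log2 fold change -0.62). In each of these genes the 2 genotypes were separate, as in every called gene. Ccl22, an attractant of regulatory T cells, rose, with 36.8 and 149 in TET iTKO and 19.6 and 12.1 in WT (log2 fold change 2.55, SE 0.79, DESeq2 adjusted p 0.0236), with TET iTKO replicate 2 far above replicate 1. Of 12 CXC chemokines tested, 2 rose (16.7%), with a median of 0.54. Of 10 CC chemokines 1 rose (10%) and 3 fell (30%), with a median of -0.06, against 3.16% higher and 3.28% lower over all genes. Named after their values were seen, Cxcl1 had 828 and 1340.1 in TET iTKO and 440.3 and 454 in WT (adjusted p 0.0992 by DESeq2, 0.0217 by edgeR). Cxcl10 had 5433 and 8437 in TET iTKO and 4957 and 17186 in WT. Ccl3 had 13307 and 17856 in TET iTKO and 11384 and 14867 in WT, and none of the 3 passed the DESeq2 threshold. Cxcl3 and Ccl7 were called in every alternative. Ccl22 was not called when any library but TET iTKO replicate 1 was left out, in edgeR or with the replicate number as a block. Ccl2 was not called without TET iTKO replicate 2 or in edgeR, and Cxcl2 not without TET iTKO replicate 2, without either WT library or with the block.

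Of 15 chemoattractant receptors tested, 5 rose (33.3%, against 3.16% of all genes) and 2 fell (13.3%, against 3.28%). Besides Cx3cr1, Ccr2, the receptor for Ccl2 and Ccl7, had 224 and 566 in TET iTKO and 57.7 and 84.98 in WT (log2 fold change 2.47, SE 0.64, DESeq2 adjusted p 0.00385). Ccr3, an eotaxin receptor, had 93.6 and 154 in TET iTKO and 68.1 and 59.6 in WT (log2 fold change 0.96). Ccr7, which guides dendritic cells to lymph nodes, had 15.6 and 68.7 in TET iTKO and 2.06 and 2.21 in WT. Cxcr3, a receptor for interferon-induced chemokines, had 22.3 and 21.8 in TET iTKO and 1.03 and 2.21 in WT, with at most 3 counts in each WT library. C5ar1, the receptor for the complement fragment C5a, fell, with 4190.1 and 3444 in TET iTKO and 7274 and 5881 in WT (log2 fold change -0.79, SE 0.13, DESeq2 adjusted p 1.72e-07). The count of rises was 1 without TET iTKO replicate 2, 1 without WT replicate 1 and 2 without WT replicate 2, and 3 in edgeR. Cx3cr1 and C5ar1 were called throughout.

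Transcripts of both cyclooxygenases, which catalyse the committed step of prostaglandin synthesis, were higher. Ptgs2, the inducible cyclooxygenase COX-2 (chromosome 1, 151947254 to 151955140), had 3778 and 6480.4 in TET iTKO and 1249.8 and 2187 in WT (log2 fold change 1.58, SE 0.48, DESeq2 adjusted p 0.02). Ptgs1, the constitutive COX-1, had 43.5 and 41.8 in TET iTKO and 3.09 and 9.93 in WT (log2 fold change 2.73, SE 0.59, DESeq2 adjusted p 0.000225). Hpgds, which makes prostaglandin D2, had 1887 and 1687 in TET iTKO and 1187 and 1255 in WT (log2 fold change 0.55). Tbxas1, thromboxane synthase, fell, with 700.0 and 610.0 in TET iTKO and 927 and 816 in WT, and so did Pla2g7, the hydrolase of platelet-activating factor, with 18929.6 and 16137 in TET iTKO and 23750.3 and 24928 in WT. Of 19 genes tested, 3 rose (15.8%) and 2 fell (10.5%), and the median was -0.05. Ptgs2 was not called without TET iTKO replicate 2, without WT replicate 1 or in the fit of the 4 stimulated libraries alone, and Hpgds was called in every alternative.

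Few genes of the receptor and its signalling pathway passed the test. Of 33 genes for Toll-like receptors and their signalling, 1 rose and 1 fell (3.03% each, near the shares over all genes), with a median of 0.04. Ticam2, the adaptor TRAM that links TLR4 to TRIF, had 1244 and 1666 in TET iTKO and 870.3 and 1125 in WT (log2 fold change 0.55, SE 0.18, DESeq2 adjusted p 0.0413). Tlr8, a sensor of RNA, had 2139 and 1913 in TET iTKO and 2504 and 3440.0 in WT (log2 fold change -0.55, SE 0.14, DESeq2 adjusted p 0.00315). Tlr4, the receptor for KLA, and its co-receptor Cd14 were looked up after the results were known, and Tlr4 had 1682 and 1268 in TET iTKO and 1551 and 1629 in WT (log2 fold change -0.11). Cd14 had 16067 and 23261 in TET iTKO and 11490.5 and 9714 in WT (log2 fold change 0.89, SE 0.32, DESeq2 adjusted p 0.0672), and passed in edgeR (0.0487). Of 21 NF-kB subunits and inhibitors tested, 3 rose (14.3%), all of them inhibitors or feedback genes, and 18 had a positive log2 fold change, with a median of 0.23. Traf1, an adaptor of TNF receptors, had 4249 and 5846 in TET iTKO and 2382 and 3501 in WT (log2 fold change 0.78, DESeq2 adjusted p 0.000468). Birc3, an inhibitor of apoptosis, had 4956 and 5849 in TET iTKO and 3629.8 and 4428 in WT (log2 fold change 0.42, DESeq2 adjusted p 0.0237). Nfkbib, the inhibitor IkB-beta, had 1269.6 and 1391 in TET iTKO and 887 and 1063 in WT (log2 fold change 0.45, DESeq2 adjusted p 0.0464). Their number was 0 without TET iTKO replicate 2, 0 without WT replicate 1 and 5 without WT replicate 2, and edgeR called 1. Tlr8 also lost its call without TET iTKO replicate 2 or WT replicate 2. Ticam2 lost it without TET iTKO replicate 2 or WT replicate 1, in edgeR and in the fit of the 4 stimulated libraries.

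Other transcription factors of the response were mixed. Among AP-1, BATF, MAF and C/EBP factors 1 of 21 rose and 2 fell. Atf4, a factor of the integrated stress response, rose (4898 and 5268 in TET iTKO and 3299.8 and 4006 in WT, log2 fold change 0.48, DESeq2 adjusted p 0.00648). Cebpa, which drives myeloid differentiation, had 328 and 246 in TET iTKO and 535 and 542 in WT (log2 fold change -0.91, SE 0.19, DESeq2 adjusted p 6.09e-05). Batf, next to an enhancer that the study selected, had 667 and 968 in TET iTKO and 626 and 615 in WT (log2 fold change 0.40, SE 0.19, DESeq2 adjusted p 0.261) and did not pass, nor did the similarly chosen Alcam (0.05) and Mdfic (0.24). Myc, a driver of growth, had 111 and 199 in TET iTKO and 66.00 and 68.4 in WT (log2 fold change 1.22, SE 0.32, DESeq2 adjusted p 0.0051). Klf2, a factor of quiescence, had 315 and 238 in TET iTKO and 551 and 428 in WT (log2 fold change -0.83, SE 0.21, DESeq2 adjusted p 0.00356). They were the 2 called genes of 13 for immediate-early EGR, NR4A, KLF and MYC factors. Cebpa was called in every alternative, whereas Atf4, Myc and Klf2 were not called without TET iTKO replicate 2 or without WT replicate 1. Atf4 was also not called in edgeR, nor Myc without WT replicate 2.

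No gene on the list of interferons and their classical targets passed the test, while 2 of the IFITM family did. Of 45 interferons and interferon-stimulated genes tested, DESeq2 called 0 and edgeR called 0, and the median was -0.10. An unadjusted p under 0.05 was found for 2 of the 45, against 1875 of all 11823 genes tested. Ifit2, an antiviral protein, had 21384 and 24519 in TET iTKO and 19090.4 and 48904 in WT. Parp14, a poly-ADP-ribose polymerase, had 27979.8 and 25834 in TET iTKO and 25167 and 35115 in WT. WT replicate 2 was the highest library and WT replicate 1 the lowest for both genes, so that the knockout pair lay between them. Rsad2 (viperin) and Mx1, named after their values were seen, had the same order, with 19611 and 24763 in TET iTKO and 18351 and 44976 in WT and 6016 and 7229.6 in TET iTKO and 4786 and 13368 in WT. Of 8 interferon regulatory factors, DESeq2 and edgeR called 0 and 3 had an unadjusted p under 0.05, while the block called 1 higher and the fit without WT replicate 2 called 1 lower. Irf7 had 19795 and 22634 in TET iTKO and 16573 and 24423 in WT, and Irf1 had 2989.6 and 3621 in TET iTKO and 2284 and 4059 in WT. With 1 library left out, interferon genes called lower numbered 4 without WT replicate 1 and 1 without either TET iTKO library, and 1 was called higher without WT replicate 2. In the small IFITM family 2 of 4 genes rose, Ifitm1 and Ifitm6 (219.6 and 235 in TET iTKO and 104 and 90.5 in WT, log2 fold change 1.22, DESeq2 adjusted p 1.71e-05). Ifitm6 was called in every alternative and Ifitm1 not without TET iTKO replicate 2 or WT replicate 2.

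A few feedback and effector genes were called. Of 21 SOCS and DUSP genes 3 rose and 2 fell. Dusp2, a nuclear phosphatase of MAP kinases, had 104 and 297 in TET iTKO and 56.7 and 47.5 in WT (log2 fold change 1.95, SE 0.47, DESeq2 adjusted p 0.00142). Dusp7, an ERK phosphatase, had 465 and 396 in TET iTKO and 758 and 632 in WT (log2 fold change -0.69, SE 0.16, DESeq2 adjusted p 0.000532). Dusp4 and Dusp16 rose by 0.40 and 0.45 and Spry2, an inhibitor of receptor tyrosine kinases, fell by 0.75 on the log2 scale, and all 5 were lost without TET iTKO replicate 2 and, except Dusp2, without WT replicate 1. Of 15 genes for nitric oxide, arginine and itaconate metabolism, the 2 that rose were arginine transporters. Slc7a2 had 11363 and 12463 in TET iTKO and 4662 and 7042 in WT (log2 fold change 1.03, SE 0.16, DESeq2 adjusted p 1.59e-08). Slc7a1 had 810.4 and 902 in TET iTKO and 402 and 382 in WT (log2 fold change 1.13, SE 0.18, DESeq2 adjusted p 1.15e-07), with both kept in every alternative. Irg1, which makes itaconate, and Arg1, arginase, were looked up afterwards and did not pass (log2 fold changes -0.34 and 0.39).

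**Figure D2:**
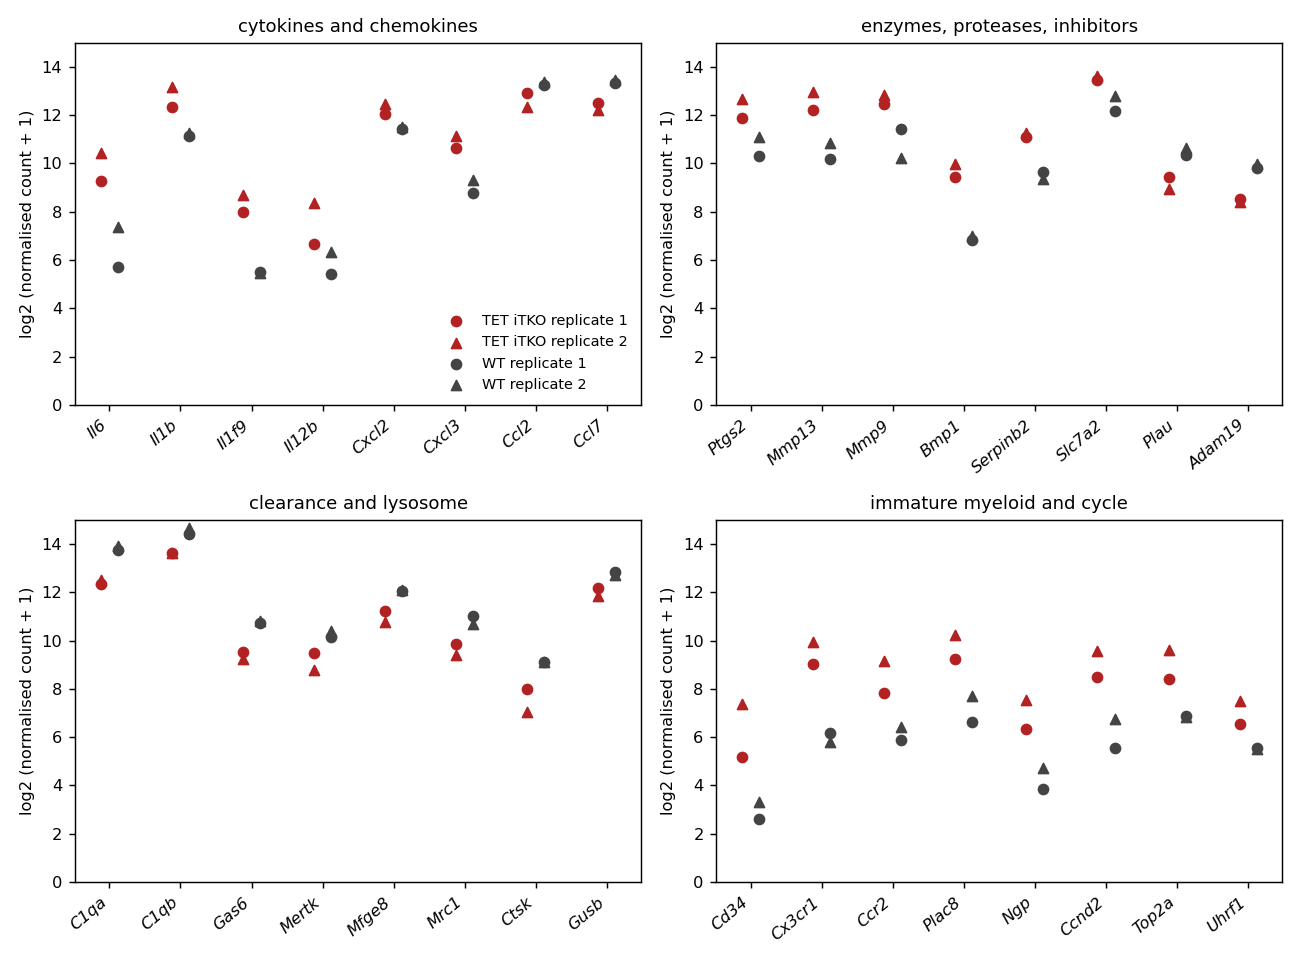
Log2 of the normalised count plus 1 (y axis) of 32 called genes in the 4 libraries at 6 h of KLA, with TET iTKO in red and WT in dark grey, circles for replicate 1 and triangles for replicate 2. The TET iTKO points lie above the WT points for Il1b, Il6 and Cxcl3 and below them for Ccl7 and C1qa.

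Genes of lysosomes and of clearance were lower as a group. Of 45 genes for lysosomal enzymes and membrane proteins, 17 fell (37.8%, against 3.28% of all genes), 1 rose and 43 had a negative log2 fold change, with a median of -0.29. Ctsk, cathepsin K, a collagen-degrading protease, had 253 and 129.7 in TET iTKO and 549.6 and 549.6 in WT (log2 fold change -1.53, SE 0.26, DESeq2 adjusted p 5.28e-07). Acp5, the tartrate-resistant acid phosphatase, had 1283 and 1010.3 in TET iTKO and 1929 and 2154 in WT (log2 fold change -0.83, SE 0.16, DESeq2 adjusted p 9.32e-06). Atp6v0d2, a subunit of the proton pump, had 128 and 78.3 in TET iTKO and 197 and 328 in WT. Gusb, beta-glucuronidase, had 4614 and 3718 in TET iTKO and 7419 and 6636 in WT. Cd63, a tetraspanin of late endosomes, had 8796 and 7669.9 in TET iTKO and 12726 and 13168 in WT. For each of these 5 genes both knockout values were below both WT values, as for every gene called lower. The 13 hydrolases that fell included, looked up afterwards, Ctsb, Ctsd, Ctsl and Hexa at -0.38, -0.35, -0.63 and -0.50 on the log2 scale. The one gene that rose was Ctsc, the cathepsin that activates granule proteases, with 17919 and 22761 in TET iTKO and 14193 and 15048 in WT (log2 fold change 0.48, DESeq2 adjusted p 0.00369). The number of falls was 8 without TET iTKO replicate 2 and 10 without WT replicate 2, and 14 in edgeR. Acp5, Gusb and Cd63 were called in every alternative, Ctsk not without WT replicate 2, and Atp6v0d2 neither without TET iTKO replicate 2 nor without WT replicate 2, nor with the block.

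Lower levels were also found for iron handling and antioxidant genes, with one large exception. Of 31 tested, 11 fell (35.5%) and 1 rose, and the median was -0.24. Steap3, the endosomal ferrireductase, had 165 and 115 in TET iTKO and 349 and 291 in WT (log2 fold change -1.20, SE 0.20, DESeq2 adjusted p 6.12e-07). Tfrc, the transferrin receptor, had 1914 and 1893 in TET iTKO and 3289 and 2648 in WT (log2 fold change -0.64, SE 0.13, DESeq2 adjusted p 0.000125). Slc11a2, the iron transporter DMT1, had 2505 and 2044 in TET iTKO and 3309 and 3686 in WT (log2 fold change -0.62). Hmox1, haem oxygenase, which frees iron from haem, had 22959 and 15992 in TET iTKO and 30975 and 28862 in WT (log2 fold change -0.62, SE 0.14, DESeq2 adjusted p 0.000822). The exception was Lcn2, lipocalin-2, an acute phase protein that binds bacterial siderophores, with 4302 and 3659 in TET iTKO and 1316 and 1290.1 in WT (log2 fold change 1.61, SE 0.16, DESeq2 adjusted p 3.2e-20). Both knockout libraries of Lcn2 exceeded both WT libraries by more than 2-fold. In this list the falls numbered 2 without TET iTKO replicate 2, 7 without WT replicate 1 and 5 without WT replicate 2, while Steap3, Tfrc and Lcn2 were called in every alternative.

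Several receptors and bridging proteins by which macrophages take up dying cells were lower, in a list that also holds other scavenger receptors. Of 27 scavenger and phosphatidylserine receptors and ligands tested, 9 fell (33.3%), 3 rose and 15 did not pass, with a median of -0.32. Gas6, the bridge from phosphatidylserine to TAM receptors, had 745 and 598 in TET iTKO and 1708 and 1768 in WT (log2 fold change -1.37, SE 0.15, DESeq2 adjusted p 3.66e-16). Mertk, its receptor, had 718 and 442 in TET iTKO and 1143 and 1341 in WT (log2 fold change -1.10, SE 0.19, DESeq2 adjusted p 5.69e-07). Mfge8, another bridging protein, had 2361 and 1754 in TET iTKO and 4242 and 4345 in WT (log2 fold change -1.06, SE 0.15, DESeq2 adjusted p 4.61e-10). Both knockout libraries were below both WT libraries for these 3 genes, as for every gene called lower, with replicate 2 the lower of the pair. Olr1, the receptor for oxidised LDL, had 257 and 186 in TET iTKO and 486 and 621 in WT (log2 fold change -1.32). Cd5l, a secreted macrophage protein that binds lipids, went the other way, with 2655 and 3566 in TET iTKO and 1224 and 971 in WT (log2 fold change 1.503, SE 0.16, DESeq2 adjusted p 3.85e-18). The count of falls lay between 6 and 12 as single libraries were left out. These 5 genes were called in every alternative, except Mertk without WT replicate 2.

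Complement and Fc receptor genes were lower in part. Of 19 complement genes, 6 fell (31.6%) and 2 rose, with a median of -0.25. The other C1q chains fell with C1qa. C1qb had 12571 and 12733 in TET iTKO and 21948 and 25579 in WT (log2 fold change -0.91, DESeq2 adjusted p 3.16e-14), and C1qc had 7871 and 8130.2 in TET iTKO and 14044 and 15989 in WT (log2 fold change -0.91, DESeq2 adjusted p 5.4e-13). Cd55, which shields cells from complement, rose (2925 and 3771 in TET iTKO and 1290.0 and 1248 in WT, log2 fold change 1.40, DESeq2 adjusted p 4.5e-15). Of 21 Fc and C-type lectin receptors, 5 fell (23.8%) and 1 rose. Mrc1, the mannose receptor, had 931 and 677 in TET iTKO and 2079.9 and 1640.0 in WT (log2 fold change -1.21, SE 0.19, DESeq2 adjusted p 6.42e-08). Fcgr3 had 1267 and 1049 in TET iTKO and 2594 and 2309.9 in WT (log2 fold change -1.08, SE 0.14, DESeq2 adjusted p 2.82e-12). Clec7a, the beta-glucan receptor dectin-1, had 130.4 and 116 in TET iTKO and 269 and 251 in WT (log2 fold change -1.08, SE 0.24, DESeq2 adjusted p 0.000413). Fcgr4 had 1225 and 1169.5 in TET iTKO and 1565 and 2230.4 in WT. Fcrls, an Fc receptor-like protein, was the one that rose, with 1184 and 1395 in TET iTKO and 664 and 653 in WT. C1qa, C1qb, C1qc, Cd55, Fcgr3 and Fcrls were called in every alternative. Mrc1, Clec7a and Fcgr4 were not called without TET iTKO replicate 2, Mrc1 also not without WT replicate 1 and Fcgr4 not without WT replicate 2 or in edgeR. The count of Fc and lectin receptors that fell was 1 without TET iTKO replicate 2 and 3 without WT replicate 2.

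In antigen presentation, 3 of 11 genes for class II molecules and the invariant chain fell, although the median of the 11 was 0.15, and no class I gene passed. Cd74, the invariant chain that escorts class II molecules, had 9830.4 and 10354 in TET iTKO and 23537 and 30618 in WT (log2 fold change -1.42, SE 0.15, DESeq2 adjusted p 5.13e-19). H2-Ab1 had 3429.9 and 3529.5 in TET iTKO and 5667 and 7501 in WT (log2 fold change -0.92, SE 0.16, DESeq2 adjusted p 8.32e-07). H2-Aa had 3401 and 3598 in TET iTKO and 5695 and 9617 in WT (log2 fold change -1.13). Some H2 genes are close copies of each other, so reads may be split between them and their counts are uncertain. Cd86, a costimulatory ligand of CD28, rose, with 702 and 701 in TET iTKO and 297 and 472 in WT (log2 fold change 0.87, DESeq2 adjusted p 0.00442). Cd83, a marker of mature dendritic cells, rose, with 278 and 445 in TET iTKO and 86.6 and 201 in WT (log2 fold change 1.33, DESeq2 adjusted p 0.00442). Over the whole list of 22 genes 2 rose and 4 fell, with a median of -0.02. Of 17 genes for class I and the immunoproteasome, DESeq2 and edgeR called 0 and 2 had an unadjusted p under 0.05, with B2m at 138940.0 and 130848 in TET iTKO and 128811 and 139062 in WT and a median of 0.00. Cd74 and H2-Ab1 were called in every alternative. Cd83 and Cd86 were not called in edgeR, without TET iTKO replicate 2 or without WT replicate 1, nor Cd86 without TET iTKO replicate 1. H2-Aa was not called when any library but WT replicate 1 was left out.

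Matrix genes were called in both directions. Of 47 tested, 12 rose (25.5%) and 8 fell (17%), with a median of 0.11. Mmp13, a collagenase, had 4779.8 and 7889 in TET iTKO and 1148 and 1854 in WT (log2 fold change 2.08, SE 0.42, DESeq2 adjusted p 6.09e-05). Mmp9, a gelatinase, had 5666 and 7342 in TET iTKO and 2760.5 and 1211 in WT (log2 fold change 1.71, SE 0.53, DESeq2 adjusted p 0.024). Thbs1 (thrombospondin-1, log2 fold change 1.45), looked up afterwards, rose with Serpinb2. Adam19, a membrane metalloprotease, had 371 and 337 in TET iTKO and 897 and 1005 in WT (log2 fold change -1.43, SE 0.19, DESeq2 adjusted p 2.73e-11). Plau, the urokinase that PAI-2 inhibits, had 686 and 484 in TET iTKO and 1319 and 1610.2 in WT (log2 fold change -1.33, SE 0.16, DESeq2 adjusted p 3.77e-14). Inhibitors of matrix metalloproteases, also looked up afterwards, fell. Timp1 had 246 and 152 in TET iTKO and 610.5 and 429 in WT (log2 fold change -1.39, DESeq2 adjusted p 0.000274), and Timp2 had 2578 and 1811 in TET iTKO and 5209 and 5272 in WT (log2 fold change -1.26, DESeq2 adjusted p 9.02e-11). Stfa3, a stefin, had 13.4 and 47.9 in TET iTKO and 4.12 and 0 in WT, with 4 raw counts in one WT library and 0 in the other. The rises numbered 6 without TET iTKO replicate 2 and 7 without WT replicate 1, and Mmp13, Serpinb2, Bmp1, Adam19 and Plau were called in every alternative.

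Among growth factors and TGF-beta signalling 4 of 44 genes rose and 2 fell. Vegfc, a lymphangiogenic factor, had 805 and 1096 in TET iTKO and 324 and 351 in WT (log2 fold change 1.496, SE 0.21, DESeq2 adjusted p 6e-10). Pdgfb had 482 and 666 in TET iTKO and 229 and 283 in WT (log2 fold change 1.17, SE 0.24, DESeq2 adjusted p 6.83e-05). Inhba, the activin A chain, had 333 and 537 in TET iTKO and 207 and 229.6 in WT (log2 fold change 1.00). Smad3, a TGF-beta effector, had 585 and 547 in TET iTKO and 373 and 397 in WT. Id1, a target of BMP signals, fell (106 and 108 in TET iTKO and 219 and 157 in WT), as did Kitl, the stem cell factor (24.5 and 28.7 in TET iTKO and 50.5 and 82.8 in WT), which is in the KLA-repressed list. Among adhesion and integrin genes 7 of 30 rose (23.3%) and 2 fell. Vcam1, which binds integrins of lymphocytes, had 1267 and 1649 in TET iTKO and 442 and 761 in WT (log2 fold change 1.28, SE 0.23, DESeq2 adjusted p 5.54e-06). Itgb7 had 2275 and 2973 in TET iTKO and 873 and 1106 in WT (log2 fold change 1.41, SE 0.18, DESeq2 adjusted p 2.98e-12). F11r, the junctional molecule JAM-A, had 171 and 238 in TET iTKO and 34.03 and 70.6 in WT. Of 32 actin, tubulin and motor genes 6 fell (18.8%). Vim, vimentin, had 17822 and 15557 in TET iTKO and 26204 and 23636 in WT (log2 fold change -0.58, DESeq2 adjusted p 7.26e-06), and the kinesin Kif5a had 17.8 and 18.3 in TET iTKO and 42.3 and 54.1 in WT. Vegfc, Vcam1, Itgb7 and Vim were called in every alternative. The growth factor rises numbered 1 without TET iTKO replicate 2 and 2 without WT replicate 1, the adhesion rises 2 without TET iTKO replicate 2 and 3 without WT replicate 1, and the falls of actin, tubulin and motor genes 3 without TET iTKO replicate 2 and 3 without WT replicate 1.

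Genes of cell division were higher, with a wide spread between the knockout libraries. Of 65 tested, 15 rose (23.1%) and 2 fell, and 55 had a positive log2 fold change, with a median of 0.72. By phase, 10 of 25 genes of mitosis rose, with a median of 1.42, and 3 of 28 of S phase, with a median of 0.45. In the Tdg cohort at 6 h the median log2 fold change of TDG iKO against its WT was 0.38 over the mitosis genes, with 0 called. Top2a, topoisomerase II alpha, had 338 and 771 in TET iTKO and 117 and 114 in WT (log2 fold change 2.27, SE 0.71, DESeq2 adjusted p 0.0262). Ube2c, a ubiquitin carrier of the anaphase complex, had 23.4 and 114 in TET iTKO and 9.28 and 8.83 in WT. Kif23, a kinesin of cytokinesis, had 35.7 and 85.3 in TET iTKO and 9.28 and 13.2 in WT (log2 fold change 2.44, SE 0.56, DESeq2 adjusted p 0.000643). TET iTKO replicate 2 was more than 2 times replicate 1 for these 3 genes, while the WT libraries lay closer together. Ttk, a kinase of the spindle checkpoint, had 18.9 and 46.1 in TET iTKO and 6.19 and 5.52 in WT. Looked up afterwards, Cdkn1a, the cell cycle inhibitor p21, had 5181 and 5934 in TET iTKO and 7706 and 7182 in WT and fell (log2 fold change -0.42, DESeq2 adjusted p 0.0178). The count of rises was 0 without TET iTKO replicate 2, 1 without WT replicate 1 and 5 without WT replicate 2, and 3 in edgeR, so it rests on those libraries. Of 28 p53 targets and apoptosis genes 5 rose and 3 fell. Pmaip1, the death protein NOXA, had 185 and 333 in TET iTKO and 51.6 and 62.9 in WT (log2 fold change 2.18, SE 0.36, DESeq2 adjusted p 2.12e-07) and was called in every alternative. Gadd45a, a growth arrest gene, had 1738 and 2129 in TET iTKO and 1155 and 1101 in WT (log2 fold change 0.78, SE 0.16, DESeq2 adjusted p 6.15e-05). The survival genes Bcl2a1a, Bcl2a1b and Bcl2a1d rose by 0.78, 0.69 and 0.89, and as near-identical copies their counts are uncertain. The rises in this list numbered 1 without TET iTKO replicate 2 and 2 without WT replicate 1.

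Genes of immature myeloid cells were higher as well. Of 36 tested, 14 rose (38.9%) and 2 fell, with a median of 1.47, and 12 of the 14 were granule or monocyte precursor genes. Plac8, a monocyte precursor gene, had 601 and 1216 in TET iTKO and 96.9 and 207 in WT (log2 fold change 2.58, SE 0.64, DESeq2 adjusted p 0.00204). Ngp, a neutrophil granule protein, had 79.1 and 184 in TET iTKO and 13.4 and 25.4 in WT (log2 fold change 2.77, SE 0.57, DESeq2 adjusted p 9.94e-05). Ltf, lactoferrin, had 30.1 and 79.2 in TET iTKO and 8.25 and 9.93 in WT. Ms4a3, which marks granulocyte and monocyte progenitors, had 30.1 and 82.7 in TET iTKO and 2.06 and 12.1 in WT. Replicate 2 was again the higher knockout library for all 4 genes. In the Tdg cohort at 6 h, 0 of 15026 genes were called. The median log2 fold change of TDG iKO against its WT was 0.41 over this list there, and 0.52 over its granule and monocyte precursor genes. Ngp had 113 and 1.55 in TDG iKO and 28.5 and 0.79 in its WT, so libraries of 1 genotype differed many-fold. The rises numbered 2 without TET iTKO replicate 2, 5 without WT replicate 1 and 9 without WT replicate 2, and edgeR called 8. Marker sets of other cells differed beside them. Of these, 4 of 12 stem and progenitor markers rose, with summed normalised counts of 529 and 1246 in TET iTKO and 249 and 375 in WT, and 6 of 10 monocyte markers rose and 1 fell (21838 and 26669.8 against 13626 and 20079). Of 9 neutrophil markers tested 4 rose (sums of 6640.2 and 6734 against 5865 and 5954), and of 12 macrophage markers 7 fell (539953 and 529164 against 673770.0 and 663788). Most of the macrophage sums was Lyz2 and Ctss, and 5 of the 12 macrophage markers had a positive log2 fold change. B cell markers summed to 75.8 and 355.04 against 40.2 and 49.7 and 1 of 6 tested rose, with the surrogate light chain gene Igll1 at 0 in all 4 libraries. Fibroblast markers summed to 1117 and 1341 against 385 and 366, most of it Dcn, with 2 of 4 tested called higher and the leptin receptor gene Lepr at 0. Of 7 dendritic cell markers tested 1 rose and 1 fell, with sums of 3681 and 3995 against 5899 and 9888, and Clec9a was at 0. Most of these sums was the class II gene H2-Aa, whereas 5 of the 7 had a positive log2 fold change, with a median of 0.87. Fewer cells of a type and less RNA per cell cannot be told apart in these libraries, and the part of other cells in the results was not tested.

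Genes of metabolism were called in shares that differed between lists. Of 23 glycolysis genes 4 fell (17.4%, against 3.28% of all genes), with a median of -0.19. Hk3 and Hk2, hexokinases, fell by 0.46 and 0.33 on the log2 scale, Pfkl, the liver phosphofructokinase, by 0.44 and Tpi1, triose phosphate isomerase, by 0.34. Pfkl had 2159 and 2082 in TET iTKO and 3186 and 2568 in WT, and the falls numbered 1 without TET iTKO replicate 1, 0 without TET iTKO replicate 2 and 1 without WT replicate 1. For 44 nuclear genes of oxidative phosphorylation, DESeq2 and edgeR called 0. An unadjusted p under 0.05 was found for 8 of the 44, against 1875 of all 11823 genes tested. A positive log2 fold change was found for 1 of the 44, with a median of -0.15. Atp5b had 11291 and 12157 in TET iTKO and 12953 and 12079 in WT. For 59 cytosolic ribosomal protein genes the calls were also 0 in both tests, 1 had an unadjusted p under 0.05 and the median was -0.08. The fatty acid carriers Fabp4 and Fabp5 fell with Fabp7. Fabp4 had 848 and 665 in TET iTKO and 1469 and 1737 in WT (log2 fold change -1.08, DESeq2 adjusted p 6.53e-06), and Fabp5 had 8039 and 5594 in TET iTKO and 13501 and 15050.1 in WT (log2 fold change -1.07, DESeq2 adjusted p 0.0382). Dgat2, which makes triglyceride, had 211 and 294 in TET iTKO and 54.7 and 46.4 in WT (log2 fold change 2.32, SE 0.36, DESeq2 adjusted p 2.47e-08). Acsl1, an acyl-CoA synthetase, had 42764 and 44217 in TET iTKO and 28002 and 33057 in WT (log2 fold change 0.51, SE 0.10, DESeq2 adjusted p 7.39e-05). In this list of 31 genes, 2 rose (6.45%) and 5 fell (16.1%), against 3.16% and 3.28% of all genes. Of 33 cholesterol genes 1 rose (3.03%) and 2 fell (6.06%), all 3 called in every alternative. Mylip, a ubiquitin ligase that limits cholesterol uptake, had 1028 and 899.8 in TET iTKO and 551 and 647 in WT, and Npc2, the lysosomal cholesterol carrier, had 22239 and 25871 in TET iTKO and 32809 and 38425 in WT. Dgat2, Acsl1 and Fabp7 were also called throughout, Fabp4 and Fabp5 not without TET iTKO replicate 2 or either WT library.

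Among genes of DNA methylation itself 2 passed the DESeq2 test, and 0 of its classical targets did. Uhrf1, which brings DNMT1 to replicating DNA, had 91.4 and 181 in TET iTKO and 46.4 and 44.1 in WT (log2 fold change 1.59, SE 0.41, DESeq2 adjusted p 0.00361). Idh1, the cytosolic isocitrate dehydrogenase whose product TET enzymes use, had 1373 and 1086 in TET iTKO and 1882 and 1489.9 in WT (log2 fold change -0.46, SE 0.15, DESeq2 adjusted p 0.033). They were the 2 called genes of 19 (5.26% each way, against 3.16% higher and 3.28% lower over all genes). Neither was called in edgeR, without TET iTKO replicate 2 or without WT replicate 1. Of 33 imprinted genes 12 were tested and DESeq2 and edgeR called 0, with 1 at an unadjusted p under 0.05 and Gnas at 6111 and 6012 in TET iTKO and 5979 and 6072 in WT. Of 23 germline genes known to be silenced by methylation only 4 had enough counts to be tested, and both tests called 0, with 0 at an unadjusted p under 0.05. Of 12 osteoclast-associated genes 4 fell and 1 rose (Mmp9), with Tm4sf19, a tetraspanin-like protein, at 27.9 and 13.1 in TET iTKO and 52.6 and 64.01 in WT beside Ctsk, Acp5 and Atp6v0d2. Of 15 alternative activation genes 3 rose (Ccl22, Myc and Chi3l3) and 2 fell (Mrc1 and Flrt2). Chi3l3, a chitinase-like protein, had 209.6 and 284 in TET iTKO and 66.00 and 109 in WT, and Flrt2, a membrane adhesion protein, had 457 and 283 in TET iTKO and 735 and 1078 in WT. Chi3l3 lost its call without TET iTKO replicate 2 or WT replicate 1 and in edgeR. In all, 42 lists held 1151 genes, of which 996 were tested and 204 called, and 558 called genes were in no list.

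**Figure D3:**
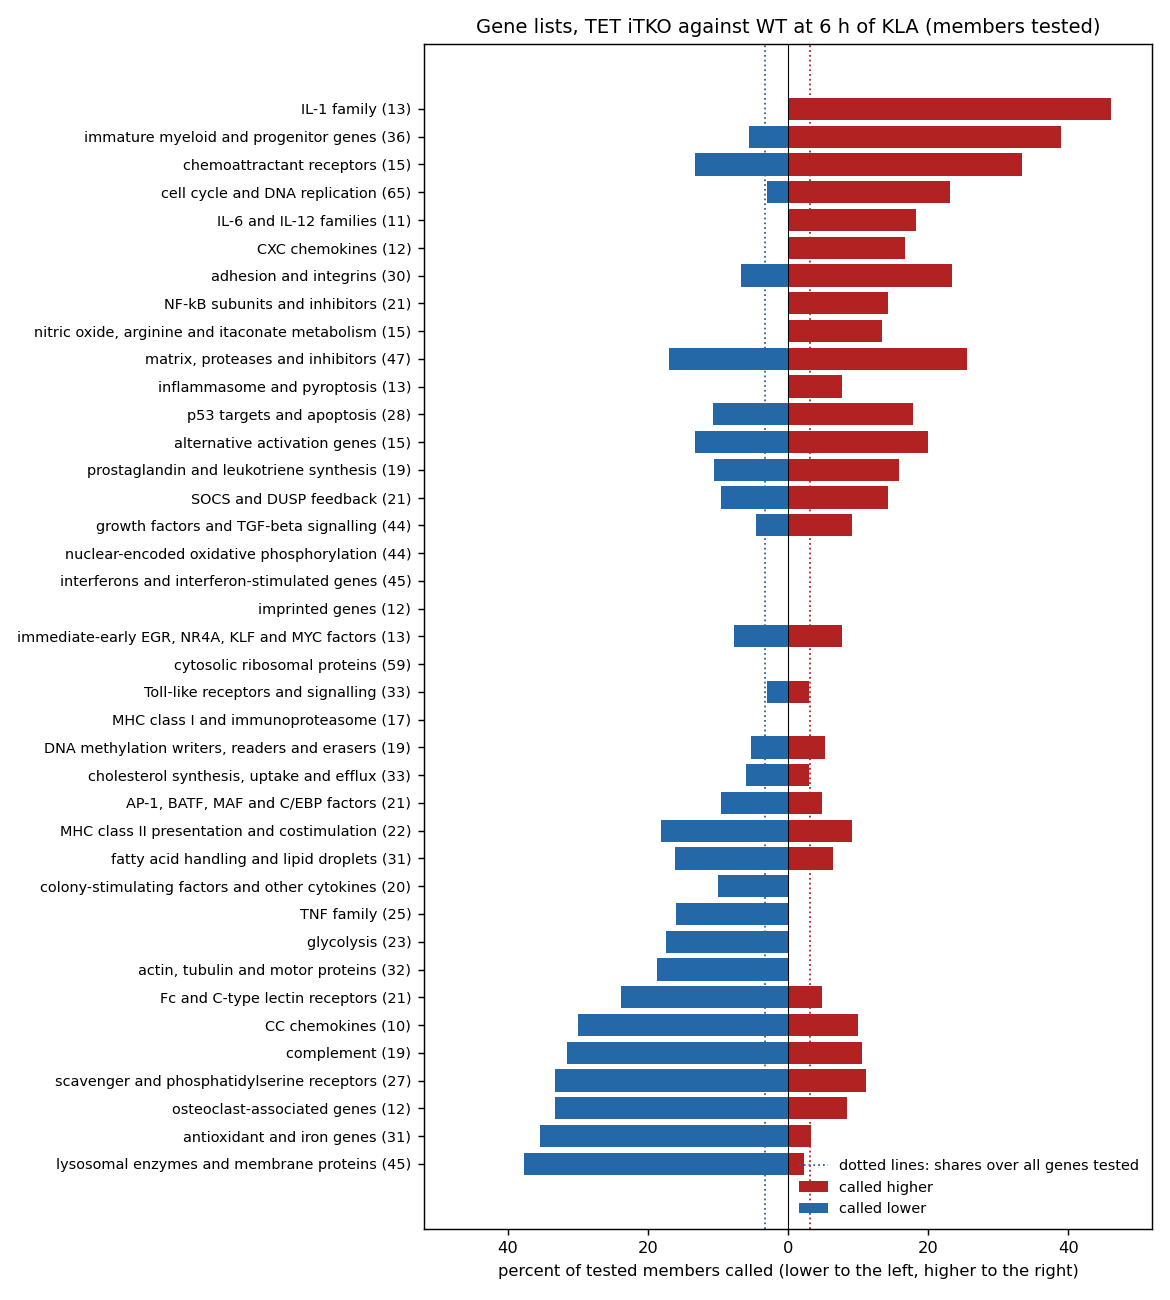
Percentage of the tested members of each gene list called higher (red) or lower (blue) in TET iTKO at 6 h of KLA, for lists with at least 10 tested members. Dotted lines mark the 3.16% and 3.28% over all genes tested. Bars to the blue side are longest for lysosomal and antioxidant and iron genes, and bars to the red side for the IL-1 family and immature myeloid genes.

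The median TET effect at 6 h was above 0 over genes that KLA induces and below 0 over genes that it represses, by amounts that varied with the libraries. The lists were taken from WT libraries of the Tdg cohort, which share no library with this comparison: the 200 genes with the largest rise at 6 h of KLA (at least 2.18 on the log2 scale) and the 200 with the largest fall (at least 1.43). Of the KLA-induced genes, 57 were called higher in TET iTKO (28.5%) and 6 lower (3%), and 150 had a positive log2 fold change, with a median of 0.28. Of the KLA-repressed genes, 35 were called lower (17.5%) and 6 higher (3%), 62 had a positive value and the median was -0.22. Over all genes tested, 3.16% were called higher and 3.28% lower, and 5895 of 11823 had a positive value. The 3% of induced genes called lower and the 3% of repressed genes called higher were near these shares. Over the 4 pairings of a TET iTKO library with a WT library, which share libraries, the median difference ran from 0.031 to 0.61 for the induced list (SD 0.24) and from -0.37 to -0.062 for the repressed list (SD 0.14), each closest to 0 for TET iTKO replicate 1 against WT replicate 2. With the 50 strongest genes the share of induced genes called higher was 48% and the median 0.66, and with 500 it was 18.4% and 0.18. KLA-induced genes that fell included Adam19, Olr1, Pnp2, Tmem2 and Spata13. Pnp2, a purine nucleoside phosphorylase with a close copy and so an uncertain count, had 199.5 and 196 in TET iTKO and 409 and 574 in WT. Tmem2, a cell surface hyaluronidase, had 548 and 522 in TET iTKO and 945 and 933 in WT, and Spata13, an exchange factor for small GTPases, had 1681 and 1578 in TET iTKO and 2124 and 2446 in WT. KLA-repressed genes that rose included Pald1, Ccr2, Mical1 and Ccnd1. Of these, Pald1 was called in every alternative, Ccr2 lost its call in 2 of 9, and Mical1 and Ccnd1 in 5 of 9, edgeR included. Pald1 had 118 and 149 in TET iTKO and 51.6 and 22.1 in WT, Mical1, an actin oxidase, had 27.9 and 53.95 in TET iTKO and 12.4 and 14.3 in WT, and Ccnd1, cyclin D1, had 371 and 633 in TET iTKO and 304 and 328 in WT. Those that fell included Rnf144b, with 16.7 and 10.4 in TET iTKO and 58.8 and 41.9 in WT, and AU022793, with 69.1 and 33.9 in TET iTKO and 128 and 131 in WT, beside Gas6 and Plau.

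**Figure D4:**
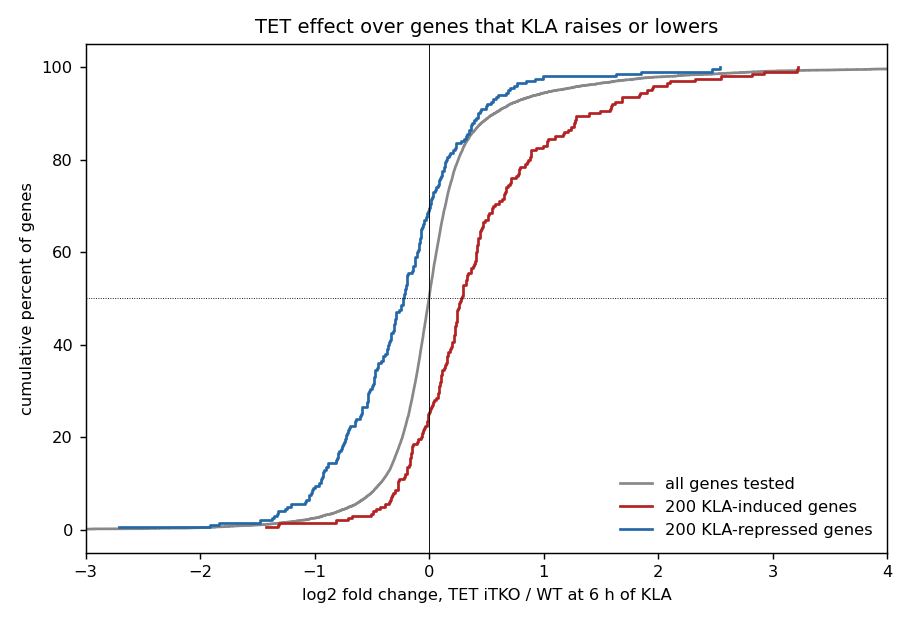
Cumulative percentage of genes (y axis) by log2 fold change of TET iTKO against WT at 6 h (x axis, shown from -3 to 4) for the 200 KLA-induced genes, the 200 KLA-repressed genes and all genes tested. The induced curve lies to the right of all genes and the repressed curve to the left, with medians of 0.28, -0.22 and 0.00.

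More than 50% of the genes called at 6 h were already called in the same direction before KLA. At 0 h, in separate libraries, 916 of 12114 genes (7.56%) were called, 535 higher (4.42%) and 381 lower (3.15%). Of the 374 genes called higher at 6 h, 209 were also higher at 0 h (55.9% of these and 39.1% of the 535), and of the 388 called lower, 209 were also lower at 0 h (53.9%, and 54.9% of the 381). In the KLA-induced list 102 genes were called higher at 0 h and the median was 0.74, against 57 and 0.28 at 6 h. The change of the TET effect between the times was tested as an interaction, which uses the same libraries as both, and 52 of 12114 genes (0.429%) were called, 46 of them with a lower effect at 6 h (0.38%) and 6 with a higher one (0.0495%). edgeR called 1 for this test. Same-numbered libraries of 0 h and 6 h deviated together from their group means (r = 0.39 in TET iTKO and 0.50 in WT across genes), and with the replicate number as a block within each genotype 224 genes were called. Il1b had a log2 fold change of 3.82 at 0 h and 1.62 at 6 h, Il6 of 5.29 and 3.21, and Ptgs2 of 2.54 and 1.58, but none of these passed the interaction test (adjusted p 0.275, 1 and 1, DESeq2). Lysosomal genes fell at both times, 22 at 0 h and 17 at 6 h.

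Several genes whose TET effect was shifted downwards at 6 h were near silent in resting WT cells and present in resting TET iTKO cells. Bmp1 had 86.1 and 151 in TET iTKO and 4.23 and 0.76 in WT at 0 h, and its log2 fold change was 5.74 there and 2.82 at 6 h (change -2.92, DESeq2 adjusted p 0.0313). Cd300e, a monocyte receptor, had 243 and 353 in TET iTKO and 16.9 and 15.3 in WT at 0 h and 604 and 924 in TET iTKO and 195 and 214 in WT at 6 h (change -2.32, adjusted p 5.92e-05). Fscn1, fascin, an actin bundler of dendritic cells, had 9.70 and 40.5 in TET iTKO and 0 and 1.53 in WT at 0 h and no called difference at 6 h, with 161 and 200.1 in TET iTKO and 147 and 163 in WT (adjusted p of the change 0.0282). Zfp811, a zinc finger gene, rose in WT from 5.29 and 5.35 at 0 h to 511 and 639 at 6 h, and in TET iTKO from 48.5 and 105 to 1072 and 1289.6. Its effect changed by -2.84, and those of Serpinb2 and Lcn2 by -1.31 and -1.01 (adjusted p 0.00327 and 0.00845). Ccl7 and Ccl2 were not called at 0 h (15208 and 14023 in TET iTKO and 14429 and 13313 in WT for Ccl7) and were lower at 6 h, with changes of -1.10 and -0.82 (adjusted p 7.3e-08 and 0.0313). In WT, KLA changed Ccl7 by -0.37 on the log2 scale and in TET iTKO by -1.47, values that share libraries with the TET effect. Spata13 and Hk2 were called higher in TET iTKO at 0 h (0.80 and 0.32) and lower at 6 h (-0.49 and -0.33), with adjusted p-values of the change of 1.41e-07 and 0.0124. The 6 h call was lost in 6 of 9 alternatives for Hk2, edgeR included, and in 2 of 9 for Spata13.

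Among genes whose TET effect was shifted upwards at 6 h, Gadd45a had 1335 and 1142 in TET iTKO and 1308 and 1726 in WT at 0 h, overlapping, and 1738 and 2129 in TET iTKO and 1155 and 1101 in WT at 6 h (change 1.07, DESeq2 adjusted p 0.00117). Tsc22d1, a leucine zipper gene of the TGF-beta response, had a log2 fold change of -0.60 at 0 h and 0.93 at 6 h (adjusted p of the change 0.000629), and Enc1, an actin-binding kelch protein, of -0.35 and 0.72. Arhgap22 and Rap2a, regulators of small GTPases, were lower in TET iTKO at 0 h (-0.61 and -0.88) and not called at 6 h (0.30 and -0.12). Without WT replicate 1 the interaction called 154 genes and without TET iTKO replicate 1 it called 28.

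**Figure D5:**
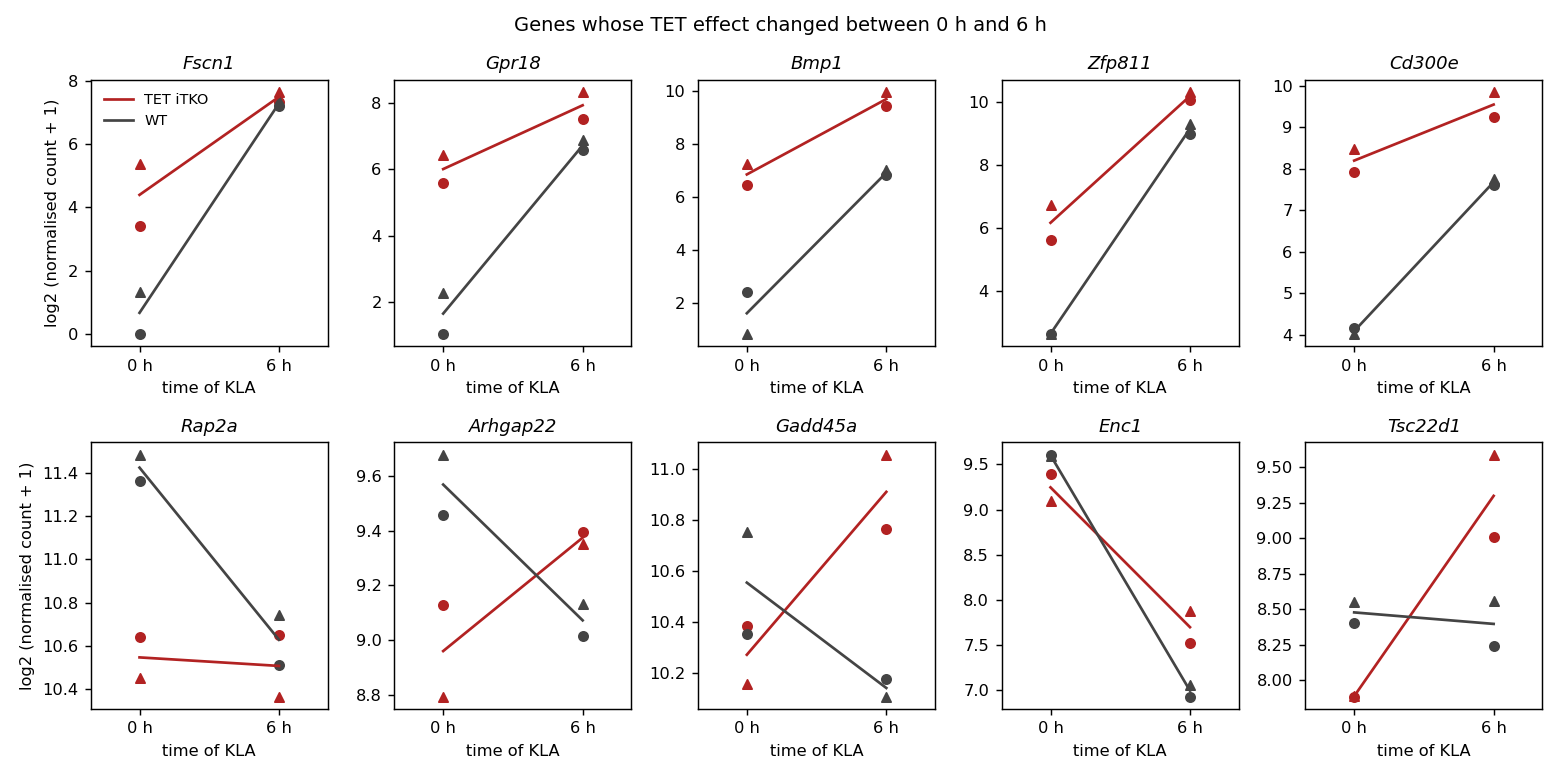
Log2 of the normalised count plus 1 (y axis) of 10 genes with a called change of the TET effect, at 0 h and 6 h of KLA, for TET iTKO and WT. Circles are replicate 1 and triangles replicate 2, lines join the group means, and the y axes differ between genes. For the 5 genes of the upper row the gap between the genotypes narrows after KLA. In the lower row it closes for Rap2a, and TET iTKO passes from below to above WT for the other genes.

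Deletion of Tdg was used as a second contrast at 6 h, from its own cohort and WT. The TET effect and the TDG effect differed for 11 of 12393 genes tested (0.0888%), 7 with the TET effect higher (0.0565%) and 4 lower (0.0323%). edgeR called 1, and DESeq2 called 6 without TET iTKO replicate 1 and 3 without TET iTKO replicate 2. In the Tdg cohort the deviations of TDG iKO and WT libraries with the same number were correlated at 6 h (r = 0.82 across genes), and with the replicate number as a block within each cohort, an alternative added after seeing the data, 101 genes were called, the 11 among them. Bmp1 had a TET effect of 2.82 and a TDG effect of -0.45 (difference 3.27, DESeq2 adjusted p 0.0434), with 70.5 and 202 in TDG iKO and 116 and 256 in their WT. Ccnd2, Runx3 and Cd5l had TDG effects of 0.09, -0.49 and -0.22 beside TET effects of 2.86, 3.22 and 1.503. Syngr1 and Clec7a, lower with loss of TET, had TDG effects of 0.02 and 0.84. AI427809 had 81.4 and 65.7 in TDG iKO and 20.2 and 15.04 in their WT, a TDG effect of 2.07 that did not pass by itself. For the inflammatory genes the TDG effects were 0.01 for Il6, 0.16 for Il1b and 0.16 for Ptgs2, and their differences from the TET effect did not pass (adjusted p 0.185, 1 and 0.759). With the block within each cohort the difference passed for Il6 (3.35, SE 0.63, DESeq2 adjusted p 0.000119) and Ptgs2 (1.48, SE 0.33, adjusted p 0.00283) and not for Il1b (1.41, SE 1.01, adjusted p 1). The median TDG effect over the KLA-induced list was 0.00. Without the block the standard error of the Il6 difference was 0.92, so a miss there does not show equal effects.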

How the data were processed

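Polyadenylated RNA of 16 BMDM libraries (4 groups of 2 in each of the Tet and Tdg cohorts) was used, of which the 4 Tet cohort libraries at 6 h of KLA are the subject. The authors deposited read counts per gene for each library, 23420 gene symbols and 5 tally rows (reads not assigned), which were left out of library sizes and tests. Paired 50-bp reads were aligned to mm9; the submitters' processing notes name HISAT2, HTSeq and DESeq2 1.30.0. The aligner settings, annotation, strand setting and the instrument used for each library are not given in the sources used here, so reads of overlapping and antisense genes cannot be told apart. More than 1 sequencer model was used.

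Counts were fitted with DESeq2 1.42.0 in R 4.3.3 over the 8 libraries of the Tet cohort, with 1 coefficient per group and time, Wald tests, Benjamini-Hochberg adjustment over all genes tested and a threshold of 0.05. The difference from the TDG effect came from a fit over both cohorts. edgeR 4.0.16 (quasi-likelihood test) was an alternative, with TMM factors, a count filter (10 counts in 2 libraries), the 4 stimulated libraries alone, a replicate block and each library left out. Alternatives for the counts at 0 h and for the response to KLA were added after seeing the data. Tables and plots were made with Python 3.11.15, pandas 2.3.3 and matplotlib 3.10.9. The DESeq2 and edgeR tests of TET iTKO against WT at 6 h were run on simulated data. The other contrasts and the fits with a block were not.

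Genes were named by a rule: the targeted genes, Ndor1 and genes near the study's enhancers, the 12 largest called changes per direction with a mean of at least 50 normalised counts and no overlap, the 5 smallest adjusted p-values per direction, the 5 largest called members of each list or, with none called, its 2 highest genes, and 5 per direction of the interaction, of the TET minus TDG difference and of the KLA lists. The members and gene lists were chosen with earlier results of these data known. Promoter windows came from mm9 with GENCODE vM1 starts, because 75.6% of called genes matched the RefSeq promoter table by symbol. The 8 Th2 libraries were not used, and some genes that the rule names are not reported here. Same-numbered libraries of the 2 genotypes did not deviate together in the Tet cohort but did in the Tdg cohort. The labels do not say what the numbers mark, so the main fits had no block, and a block within each cohort was added after seeing the data. Counting intervals cover counting error only.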

Additional observations from a re-analysis of the deposited data

Results flagged for a closer look

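For 52 genes the TET effect differed between 0 h and 6 h of KLA by the interaction test in DESeq2, which uses the 8 Tet cohort libraries. The 5 largest changes in each direction among genes with a mean of at least 50 normalised counts are given. The effect, as a log2 fold change, was lower at 6 h by -4.66 for Fscn1 (adjusted p 0.0282), -3.39 for Gpr18 (0.00897), -2.92 for Bmp1 (0.0313), -2.84 for Zfp811 (0.00017) and -2.32 for Cd300e (5.92e-05). The value for Fscn1 rests on WT libraries with 0 and 1.53 normalised counts at 0 h and is not a bound. It was higher at 6 h by 1.52 for Tsc22d1 (0.000629), 1.07 for Enc1 (0.0316), 1.07 for Gadd45a (0.00117), 0.91 for Arhgap22 (0.0316) and 0.76 for Rap2a (0.0318).

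For 11 genes the effect of TET loss at 6 h differed from that of TDG loss in the other cohort by a test of the difference in DESeq2. Values are given for 7 of them, chosen by the same rule. The difference was 3.73 for Runx3 (adjusted p 0.0246), 3.27 for Bmp1 (0.0434), 2.79 for Ccnd2 (0.0434) and 1.73 for Cd5l (0.0464), all higher with TET loss. It was -3.87 for AI427809 (4.06e-09), -1.91 for Clec7a (9.64e-07) and -1.56 for Syngr1 (0.00218), all lower with TET loss. Bmp1 met both tests. The cohorts differ in mice and floxed alleles as well as in the deleted genes, and these cannot be told apart here.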

How the results depend on the processing

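With 2 libraries a side, each library carried much of the result. Leaving out 1 library gave 262 to 699 genes called, 97 to 325 higher, 165 to 374 lower and 87 to 310 with at least 2-fold change, each lowest without TET iTKO replicate 2. edgeR called 247 genes higher, and the 4 stimulated libraries alone gave 237 lower. Calls numbered 782 with TMM factors and 796 with the count filter. The replicate numbers did not pair the Tet cohort genotypes (r = 0.065 between same-numbered deviations at 6 h), and the replicate block gave 817 calls, 731 of them shared with the fit without it. For the change of the TET effect from 0 h to 6 h, edgeR called 1 gene and fits without 1 library 28 to 154. With the replicate block 90 were called, and with a block inside each genotype 224. For the difference between the TET and TDG effects, edgeR called 1, the block 26, a replicate block within each cohort 101, and fits without 1 library 3 to 8. With 50 genes the median TET effect was 0.66 over KLA-induced genes, 48% of which were called higher, and -0.36 over KLA-repressed genes. With 500 genes 18.4% of induced genes were called higher, and edgeR called 1.5% of the repressed genes higher. Over the alternatives added later, 688 to 1036 genes were called at 0 h. Of 159 called genes named by the rule, 59 were called in every alternative that tested them and 0 changed direction, and 92 were not called without TET iTKO replicate 2. Of 756 list counts, 184 moved by more than 1.5 times. Log2 fold changes that changed sign all belonged to genes that were not called. With 1 library left out, Alcam ranged from -0.068 to 0.18, B2m from -0.043 to 0.067, Ddx4 from -0.998 to 2.47, Gnas from -0.0058 to 0.0201, Ifit2 from -1.09 to 0.27, Irf1 from -0.30 to 0.53, Irf7 from -0.20 to 0.36, Parp14 from -0.38 to 0.097, Rap2a from -0.27 to 0.014, Rpl4 from -0.052 to 0.17 and Rps3 from -0.33 to 0.029. edgeR gave -1.7e-05 for B2m and -0.0018 for Gnas, and the replicate block 0.15 for Ddx4. The cause of these moves was not tested.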
